A study of Mus musculus with 9 samples.

Results

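The genes described here are Igfbp5 and 9 other genes of the insulin-like growth factor (IGF) axis: the binding protein genes Igfbp2, Igfbp3, Igfbp4, Igfbp6 and Igfbp7, the ligand genes Igf1 and Igf2, and the receptor genes Igf1r and Igf2r. They are 10 of the 22180 genes that the arrays measured with a probe set of 1 annotated gene, and each of the 10 had exactly 1 such probe set. Igfbp5 was chosen by its measured difference between Hmgn5 siRNA and control siRNA at 24 h. The control arrays behind that choice enter its time difference too, so all of its differences are given as a description without a test. The other 9 were chosen as its family and pathway partners.

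The samples were N1E-115 cells, an established mouse neuroblastoma line that puts out neurites when it is deprived of serum and placed on laminin. All received 80 nM of siRNA, were starved of serum overnight in Neurobasal medium and were replated on laminin, so every group carries a transfection and a starvation. The groups, with 3 arrays each, were a pool of siRNAs against Hmgn5 at 24 h of differentiation, then control siRNA at the same time, and last control siRNA after 4 h. Hmgn5 encodes a nucleosome-binding protein that loosens chromatin, and its signal was lower with its siRNA. The 3 Hmgn5 siRNA arrays read 3.53, 3.45 and 3.50 for Hmgn5, against 4.77, 4.66 and 4.69 on the 24 h control arrays (log2 scale), a difference of -1.21 (SE 0.09, limma adjusted p = 0.00367). These levels are dim, below the 95th percentile of 5.05 that genes taken as silent reached (described further on), so how much Hmgn5 RNA remained cannot be read from them. No Hmgn5 siRNA array at 4 h was analysed here, so the siRNA comparison was made at 24 h and the time comparison in control cells. Both use the same 24 h control arrays. The array of control 4 h replicate 2 had the lowest array weight, 0.198 where the others had 0.789 to 1.74.

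IGF1 and IGF2 are small secreted proteins that act through the IGF1 receptor, a tyrosine kinase that recruits insulin receptor substrates and activates phosphoinositide 3-kinase and Akt. The IGF2 receptor has no kinase, and it carries IGF2 to lysosomes. Secreted IGF-binding proteins hold the ligands, lengthen their life and keep them from the receptor or hand them over to it, and IGFBP5 also binds to extracellular matrix and can act without IGF. In human neuroblastoma lines IGF2 is known as an autocrine growth factor and IGFBP5 is a commonly expressed binding protein.

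The promoters of 3 of the genes are printed because Igfbp5 had the largest differences between groups, Igfbp2 is its neighbour in the genome and was not called in any comparison, and Igf1r was the one other member to pass a test. Each is a RefSeq window of GRCm38.p6 that runs from 250 bases before to 50 bases after an annotated start. All 10 genes had at least 1 such window. Capitals mark matches on either strand to 5 motifs. TATTTAA is a TATA-like element and TATAAA is the core of the TATA box. GCCNNNGGC is the AP-2 consensus, which no other motif overlapped in these windows. GGGCGG is the GC box. CCAAT is the core of the CCAAT box. The windows are chr1:72874816-72875115 (minus strand) for Igfbp5, chr1:72824230-72824529 (plus strand) for Igfbp2 and chr7:67952007-67952306 (plus strand) for Igf1r.
Igfbp5: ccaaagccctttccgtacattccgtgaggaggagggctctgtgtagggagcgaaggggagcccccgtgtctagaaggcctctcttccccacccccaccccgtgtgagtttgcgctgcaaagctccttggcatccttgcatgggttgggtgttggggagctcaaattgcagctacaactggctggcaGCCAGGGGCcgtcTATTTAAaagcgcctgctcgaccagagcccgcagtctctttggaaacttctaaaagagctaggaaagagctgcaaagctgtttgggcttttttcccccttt
Igfbp2: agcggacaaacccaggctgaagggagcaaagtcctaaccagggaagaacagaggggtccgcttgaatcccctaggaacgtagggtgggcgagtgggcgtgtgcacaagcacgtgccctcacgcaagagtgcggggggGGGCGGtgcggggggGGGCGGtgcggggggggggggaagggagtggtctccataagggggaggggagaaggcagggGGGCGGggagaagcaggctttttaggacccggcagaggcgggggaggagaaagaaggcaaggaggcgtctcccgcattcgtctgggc
Igf1r: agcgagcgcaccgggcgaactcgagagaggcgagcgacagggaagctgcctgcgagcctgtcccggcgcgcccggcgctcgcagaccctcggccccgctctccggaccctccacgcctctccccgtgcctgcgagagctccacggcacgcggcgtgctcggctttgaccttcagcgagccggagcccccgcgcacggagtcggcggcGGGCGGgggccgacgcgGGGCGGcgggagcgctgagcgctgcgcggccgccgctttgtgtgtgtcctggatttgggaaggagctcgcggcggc

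The Igfbp5 window held 1 TATTTAA, with its first base 51 before the start, and 1 GCCNNNGGC directly upstream of it, but no GC box. In the table of 32851 windows of this length, 4.51% held TATTTAA, 16.6% held GCCNNNGGC and 35.7% held GGGCGG. The Igfbp2 window had 3 GC boxes and the Igf1r window had 2, and neither had a TATA-like match. G and C made up 56.3% of the Igfbp5 window, 67.0% of the Igfbp2 window and 76.0% of the Igf1r window. Among the other members, Igfbp4 and Igfbp6 each had a TATAAA, which 13.6% of all windows had. These are matches of letters only.

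Values are log2 expression as deposited after robust multi-array averaging (RMA), a scale on which a difference of 1 is a doubling of signal. Brightness depends on each probe set's own probes, so levels are compared between groups and not between genes. The arrays gave no detection call. Genes of olfactory and vomeronasal receptors, which neuroblastoma cells are not expected to use, served as a measure of the signal of silent genes. Their median over 1394 genes was 3.34, their 95th percentile 5.05 and their highest value 10.27. By that measure 5 members were well above silent genes: Igfbp4, Igfbp7, Igf1r, Igfbp5 and Igfbp6 exceeded 99.6% to 100% of the receptor genes. Igfbp2, Igf2, Igf2r, Igf1 and Igfbp3 exceeded 96.1% to 98.1% of them and lay near the middle of all genes, above 43.1% to 51.2%. Between-group differences of these 5 dimmer genes were measured close to that range.

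**Figure D1:**
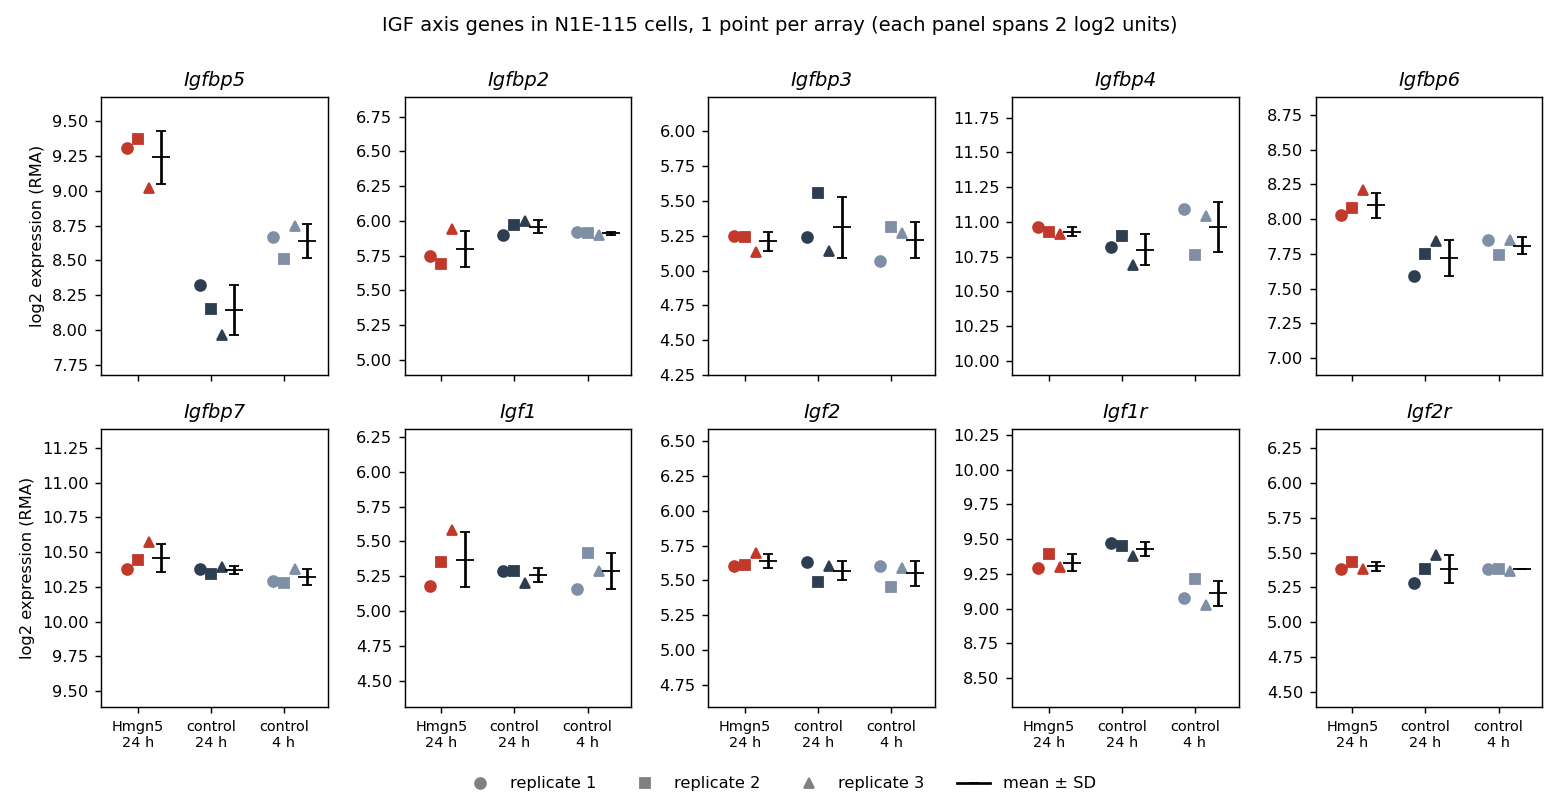
Each point is 1 array's log2 expression of the named gene, and the bars beside the points give the mean and SD of 3 arrays. Colours and x positions give the group, with Hmgn5 siRNA on the left, 24 h controls in the middle and 4 h controls on the right. In the Igfbp5 panel no groups touch: Hmgn5 siRNA arrays span 9.02 to 9.37, the 24 h controls 7.96 to 8.32 and the 4 h controls 8.51 to 8.75.

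Igfbp5 was highest with Hmgn5 siRNA. The arrays with Hmgn5 siRNA at 24 h read 9.31, 9.37 and 9.02 for Igfbp5 (probe set 17224180), against 8.32, 8.15 and 7.96 with control siRNA at 24 h. Each knockdown array exceeded each of the 6 arrays with control siRNA, and the lowest of them, replicate 3, was still clear of the highest control. The mean was 9.24 ± 0.19 with Hmgn5 siRNA and 8.14 ± 0.18 with control siRNA at 24 h (SD, n = 3 each), a log2 difference of 1.09 with SE 0.12, or 2.13-fold. Without each of the 9 arrays in turn the difference was 1.00 to 1.20. In such bulk samples, fewer cells that express a gene and less of its RNA per cell cannot be told apart.

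In control cells Igfbp5 was lower at 24 h than at 4 h. The 4 h control arrays read 8.67, 8.51 and 8.75, with a mean of 8.64 ± 0.12 (SD, n = 3). The lowest of these, from control 4 h replicate 2, was above all 3 control arrays at 24 h. The log2 difference of 24 h minus 4 h was -0.50 (SE 0.12), which is 1.41-fold, and -0.59 to -0.40 when single arrays were left out. Hmgn5 siRNA at 24 h was higher than control siRNA at 4 h by 0.59 (SE 0.12), a comparison in which siRNA and time differ together. The order of the groups was thus Hmgn5 siRNA at 24 h, then control at 4 h, then control at 24 h, and no neighbours in that order overlapped. The knockdown and time differences of Igfbp5 share the 24 h control arrays with opposite sign, and a low reading of those arrays would enlarge both.

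**Figure D2:**
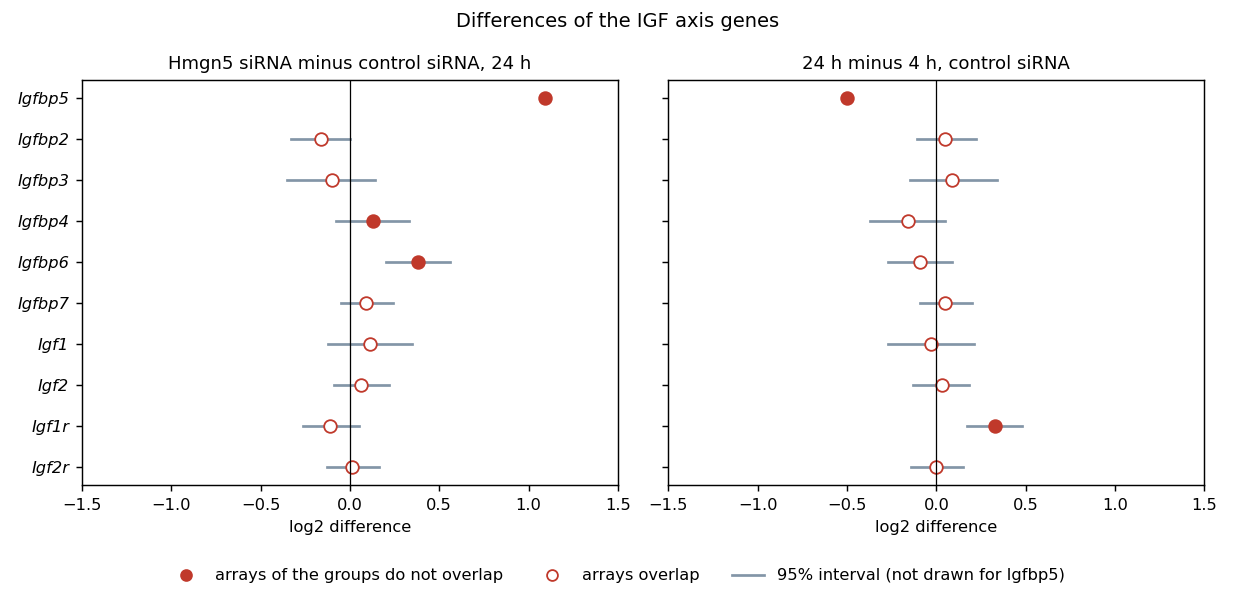
Points are log2 differences of the 10 genes, on the left the knockdown difference (Hmgn5 siRNA minus its 24 h control) and on the right 24 h minus 4 h in control cells, with 95% intervals from the limma fit as lines for all but Igfbp5, which has none because it was chosen by the difference on the left. Filled points are genes whose 3 arrays in one group do not overlap the 3 in the other. Igfbp5 lies at 1.09 and -0.50, and the other 9 lie between -0.16 and 0.38 on the left and between -0.16 and 0.33 on the right.

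None of the other 9 members was called at knockdown in the limma fit over all genes with Benjamini-Hochberg adjustment (adjusted p 0.438 to 0.999), where 0.0135% of all genes were called, 0.00902% higher and 0.00451% lower. At an unadjusted p under 0.05 there were 2 of the 9, Igfbp6 and Igfbp2, and 5.25% of all genes. Differences were above 0 for 6 and below 0 for 3, with a median of 0.06, and the median over all genes was -0.002. Arrays of the groups did not overlap for Igfbp4 and Igfbp6, both higher with Hmgn5 siRNA. Over all genes 12.3% had arrays that did not overlap, 6.65% higher and 5.62% lower.

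Among the other binding proteins, Igfbp6 had the largest difference at knockdown. Igfbp6 encodes a binding protein that prefers IGF2. It read 8.03, 8.08 and 8.21 with Hmgn5 siRNA at 24 h, against 7.59, 7.75 and 7.84 with control siRNA at 24 h. The 4 h control arrays read 7.85, 7.74 and 7.85, so the knockdown arrays were above all 6 control arrays for this gene as well. Its difference at knockdown was 0.38 (SE 0.08, 95% interval 0.20 to 0.56) and did not pass over all genes (limma adjusted p = 0.438). Over time its difference was -0.09 (adjusted p = 0.631), with overlapping arrays.

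Igfbp4 and Igfbp7 differed little between groups. Igfbp4 encodes a binding protein that mostly inhibits IGF action and is cleaved by the protease PAPP-A. It read 10.96, 10.93 and 10.91 with Hmgn5 siRNA at 24 h, against 10.82, 10.90 and 10.69 with control siRNA. These groups stood apart by 0.01 at their closest arrays, and the difference of 0.13 did not pass (95% interval -0.08 to 0.33, limma adjusted p = 0.984). At 4 h the control arrays read 11.09, 10.76 and 11.04, so control 4 h replicate 2 was low and lay among the 24 h arrays. The time difference of Igfbp4 was -0.16 (95% interval -0.37 to 0.05, adjusted p = 0.414), which was -0.26 without that array and still not called. Igfbp7 encodes a relative with low affinity for IGFs that also binds insulin. It ranged over all 9 arrays by 0.29, from 10.28 to 10.57, and its differences were 0.09 at knockdown and 0.05 over time (adjusted p = 0.984 and 0.731).

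Igfbp2, whose product is a binding protein abundant in the developing nervous system, had a knockdown difference opposite in sign to that of its neighbour Igfbp5. It read 5.75, 5.69 and 5.94 with Hmgn5 siRNA at 24 h, against 5.90, 5.97 and 6.0 with control siRNA. One knockdown array, replicate 3, lay among the controls. The difference was -0.16 (95% interval -0.33 to 0.00) and did not pass (limma adjusted p = 0.95). Over time it was 0.05 (adjusted p = 0.773). Igfbp3 encodes the main carrier of IGFs in serum. It averaged 5.21 ± 0.07 with Hmgn5 siRNA and 5.31 ± 0.22 with control siRNA at 24 h (SD, n = 3 each), where control 24 h replicate 2 read 5.56 and the other control arrays 5.24 and 5.14. Neither of its differences passed, and both changed sign when that array was left out, to 0.02 at knockdown and -0.03 over time.

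The ligand genes showed no difference beyond the spread of their arrays. Igf1 read 5.18, 5.35 and 5.58 with Hmgn5 siRNA at 24 h, against 5.29, 5.29 and 5.20 with control siRNA at 24 h, and 5.16 to 5.42 at 4 h. The knockdown arrays spanned all of the 24 h controls and overlapped the 4 h ones. Its difference was 0.11 at knockdown (95% interval -0.12 to 0.35) and -0.03 over time (-0.27 to 0.21). Igf2 averaged 5.64 ± 0.05 with Hmgn5 siRNA, 5.57 ± 0.07 with control siRNA at 24 h and 5.55 ± 0.09 at 4 h (SD, n = 3 each). Its intervals ran from -0.09 to 0.22 at knockdown and from -0.13 to 0.18 over time.

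Of the receptors, Igf1r was higher at 24 h than at 4 h. The 24 h control arrays read 9.47, 9.45 and 9.38, against 9.08, 9.21 and 9.03 on the 4 h control arrays, so the groups did not overlap. Igf1r rose over time by 0.33 (SE 0.07, 95% interval 0.17 to 0.48), or 1.25-fold, with a limma adjusted p = 0.0278. It was 1 of the 9 tested members called over time, where 4.34% of all genes were called, 2.17% higher and 2.17% lower. It was also the 1 member with an unadjusted p under 0.05, which 18% of all genes had, and the 1 whose arrays did not overlap, which 11.3% of all genes showed in the higher direction. An exact two-sided permutation test over samples gave p = 0.1, and 3 against 3 arrays can go no lower. The call was lost in 6 of 9 fits that left out 1 array. Without control 24 h replicate 1, 2 or 3 the adjusted p was 0.103, 0.0966 and 0.0629. Without control 4 h replicate 1 or 3 it was 0.0716 and 0.0811, and without Hmgn5 siRNA replicate 1 it was 0.0517. Without control 4 h replicate 2, the array of low weight, the difference was 0.38 and the call remained (adjusted p = 0.0116).

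With Hmgn5 siRNA at 24 h, Igf1r read 9.29, 9.39 and 9.30, above all 4 h control arrays and close to the 24 h controls. Only replicate 2 reached into the 24 h control range. The knockdown difference was -0.11 (95% interval -0.26 to 0.05, limma adjusted p = 0.984). By level the Igf1r groups ran from control at 24 h through Hmgn5 siRNA at 24 h to control at 4 h, in which the first pair overlapped. Igf2r averaged 5.40 ± 0.03 with Hmgn5 siRNA and 5.38 ± 0.10 with control siRNA at 24 h (SD, n = 3 each). Its intervals, -0.13 to 0.16 at knockdown and -0.14 to 0.15 over time, were among the tightest of the set, at a dim signal.

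With Hmgn5 siRNA at 24 h set against control siRNA at 4 h, a comparison that mixes siRNA and time, none of the 9 was called (limma adjusted p 0.109 to 0.983). Over all genes 2.57% were called, 1.52% higher and 1.04% lower. At an unadjusted p under 0.05 there were 3, Igfbp6 with a difference of 0.29, Igf1r with 0.22 and Igfbp7 with 0.15, and 15.7% of all genes. Arrays did not overlap for Igfbp6 and Igf1r, both higher, while 18.9% of all genes had such arrays, 10.3% higher and 8.59% lower.

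The other genes near Igfbp5 in the genome did not share its knockdown difference. In the RefSeq order of GRCm38.p6, Igfbp2 is the next protein-coding gene on one side, and the 3 nearest measured ones on that side were Igfbp2, Rpl37a and Ankar, while Tnp1, Tns1 and Rufy4 were nearest on the other. At knockdown the differences of these 6 lay between -0.23 and 0.08 and none passed (limma adjusted p 0.95 to 0.999), where 0.0135% of all genes were called. Ankar, with group means of 4.05 to 4.27, and Tnp1, with 4.81 to 4.90, lay below the 95th percentile of silent genes, 5.05. Igfbp2 was dim too, so differences of these genes were measured close to that range. Tns1, which encodes an adhesion protein linking integrins to actin, averaged 7.79 ± 0.30 with Hmgn5 siRNA and 8.02 ± 0.09 with control siRNA at 24 h, a difference of -0.23, where Igfbp5 had 1.09. Over time Tns1 differed by -0.29 (adjusted p = 0.275), the same direction as Igfbp5. Its 24 h control arrays were all below the 4 h ones, as for 9.98% of all genes. Rpl37a, a ribosomal protein gene, differed by 0.19 (adjusted p = 0.520).

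The profile of Igfbp5 over the 9 arrays was also set against every other gene. Likeness was measured as the root mean square difference between array values after each gene's own mean was subtracted, so a gene must match in size as well as direction. The median gene was at 0.48 log2 units from Igfbp5. The nearest were Pltp, a phospholipid transfer protein of lipoproteins, at 0.25, and Nrp2, a neuropilin receptor for semaphorins and VEGF, at 0.28. The immunoreceptor gene Milr1, the laminin gene Lamb2, the Rap effector gene Radil and the matrix glycoprotein gene Sparc followed, each at 0.29. Pltp read 7.89, 7.94 and 7.81 with Hmgn5 siRNA at 24 h, against 6.99, 6.95 and 6.95 with its 24 h control, and 7.99, 7.59 and 7.85 at 4 h. Its 4 h controls overlapped its knockdown arrays, whereas those of Igfbp5 lay between its other groups. Nrp2 averaged 10.43 ± 0.02 with Hmgn5 siRNA, 9.93 ± 0.09 with control siRNA at 24 h and 10.20 ± 0.07 at 4 h (SD, n = 3 each), the same order of groups as Igfbp5 at a smaller size. These genes were picked for the likeness, so their differences get no test. Of the other members, Igfbp6 was at 0.35, with 0.221% of genes nearer, and Igfbp4 at 0.41, with 3.30% nearer. Igfbp3, Igf1r and Igfbp2, at 0.51, 0.52 and 0.55, were farther than the median gene, and Igfbp7, Igf2, Igf1 and Igf2r, at 0.44 to 0.47, were nearer. Igf2r was almost flat, with differences of 0.01 at knockdown and 0.00 over time. A distance near that of the median gene is therefore no sign of a shared pattern.

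**Figure D3:**
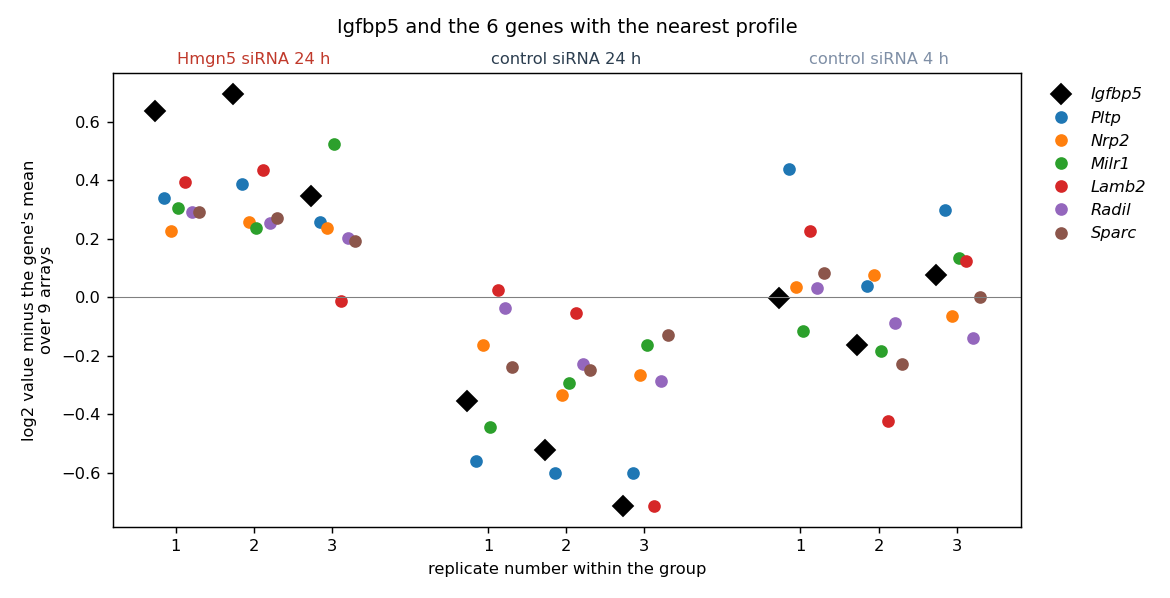
Each symbol is 1 array's log2 value of a gene minus that gene's mean over the 9 arrays, for Igfbp5 (black diamonds) and the 6 genes with the smallest root mean square difference from it (0.25 to 0.29). Replicate numbers run along the x axis within each group. Igfbp5 has the widest range of the 7 genes, 1.42 log2 units.

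Pathway genes around the axis were followed in 8 further lists that hold 149 measured genes besides the members. At knockdown none of the 149 was called, where only 0.0135% of all genes were. An unadjusted p under 0.05 in limma was found for 9, which is 6.04% where all genes had 5.25%. Over time 8 rose and 2 fell, together 6.71% of the 149 where 4.34% of all genes were called. At an unadjusted limma p under 0.05 over time there were 23, which is 15.4% where all genes had 18%. The median difference over time was 0.02, and over all genes it was 0.016.

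Of 26 insulin receptor family, insulin and adaptor genes 2 rose over time and none fell, 7.69% of the list. Of all genes, 4.34% were called, 2.17% higher and 2.17% lower. Insr, the insulin receptor, which pairs with Igf1r in hybrid receptors, read 9.18, 9.14 and 9.15 on the 24 h control arrays, against 8.77, 8.84 and 8.85 on the 4 h control arrays. These groups were well apart, and Insr rose by 0.34 (SE 0.06, limma adjusted p = 0.0132). Irs1, an insulin receptor substrate, rose by 0.55 (SE 0.12, adjusted p = 0.0285), while the adaptor gene Grb2 had 0.21 (adjusted p = 0.156). The Insr call was lost without control 24 h replicate 1 (adjusted p = 0.0563). Omitting any single 24 h control array removed the Irs1 call, as did omitting the third 4 h control or the first or second knockdown array (up to 0.103). Irs2, a gene outside the naming rule that was looked at because Irs1 had moved, averaged 10.58 ± 0.14 in control cells at 24 h and 10.58 ± 0.04 at 4 h (SD, n = 3 each). At knockdown the adaptor genes Gab1 (-0.14) and Crk (0.11) had the smallest p of this list and did not pass.

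Downstream, 3 of 34 PI3K, Akt, mTOR and FoxO genes rose over time and 1 fell, together 11.8% of the list. Of all genes, 4.34% were called over time, 2.17% higher and 2.17% lower. Pik3r3, a regulatory subunit of phosphoinositide 3-kinase, read 9.29, 9.28 and 9.20 in control cells at 24 h, against 8.53 on all 3 arrays at 4 h. The 4 h SD was thus near 0, and values that repeat between arrays are described further on. Pik3r3 rose by 0.73 (SE 0.06, limma adjusted p = 0.000511), and the call held without each of the 9 arrays in turn (adjusted p up to 0.00586). Mlst8, a subunit of the mTOR complexes, fell by 0.38 (SE 0.06, adjusted p = 0.00963) and also held in all 9 such fits (up to 0.0475). Sesn3, a sestrin that restrains mTOR complex 1, rose by 0.27 (adjusted p = 0.0418), and the lipid phosphatase gene Inppl1 rose by 0.57 (adjusted p = 0.0442). Both calls depended on each of the 24 h arrays, knockdown and control, and on the third 4 h control array (adjusted p up to 0.137 for Sesn3 and 0.152 for Inppl1 when 1 was omitted). Inppl1 was outside the naming rule and is given as the last of the 4 calls. Sesn3 (0.20) and Mlst8 (0.16) also had the smallest p at knockdown and did not pass.

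The remaining pathway lists with calls over time had 9.52%, 7.14% and 11.1% of their genes called, on counts of 2, 1 and 1. Over all genes 4.34% were called. Of 21 Igf2 mRNA-binding protein and imprinted growth genes, the zinc finger gene Peg3 rose by 0.30 over time (limma adjusted p = 0.0274) and Phlda2, a growth-restraining gene of the mouse placenta, fell by 0.52 (adjusted p = 0.0243). Both calls were lost without control 24 h replicate 2 or 3 or control 4 h replicate 3, that of Peg3 also without control 24 h replicate 1 and that of Phlda2 also without control 4 h replicate 1 (up to 0.103 and 0.0707). Phlda2 was also dim, with a mean of 4.93 on the 24 h control arrays and 5.45 on the 4 h ones, where the 95th percentile of silent genes was 5.05. Igf2bp3, an mRNA-binding protein of Igf2, had -0.26 and did not pass. Of 14 reported partners of the IGFBP5 protein, the integrin gene Itgb3 rose by 0.46 (adjusted p = 0.00444, up to 0.0243 without single arrays), and the matrix genes Vtn (0.20) and Col4a2 (0.21) did not pass. The growth hormone receptor gene Ghr rose by 0.39 (adjusted p = 0.0335), 1 of 9 growth hormone and IGF gene regulators. Omitting an array removed the Ghr call in 7 of 9 cases (up to 0.117), the exceptions being the second 4 h control and the third knockdown array. The regulators E2f3 (-0.17) and Jak2 (-0.21) did not pass. For the 10 genes called over time in these lists, the difference between Hmgn5 siRNA and control siRNA at 24 h lay between -0.08 and 0.34, and none was called.

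No call was made over time in the lists of 14 other IGFBP-domain genes, 19 IGFBP proteases and inhibitors or 12 AP-2, Myb and C/EBP factors. Over all genes 4.34% were called, a share at which lists this short can easily hold none. Their members with the smallest p over time were the IGFBP-domain gene Kazald1 (0.49), the lysosomal protease gene Ctsd (0.38), the PAPP-A inhibitor gene Stc2 (-0.40) and the AP-2 gene Tfap2b (0.31), with limma adjusted p of 0.145, 0.0659, 0.124 and 0.0555. Next were Htra4 (0.21), Ccn4 (-0.15), C1ra (-0.22), Cebpa (0.19) and Mybl1 (-0.31). At knockdown the metalloprotease gene Adam12, whose human product cleaves IGFBP3 and IGFBP5, read 7.31, 7.47 and 7.51 with Hmgn5 siRNA, against 7.05, 6.89 and 6.98 with control siRNA at 24 h. The groups were apart, but the difference of 0.45 did not pass (SE 0.08, adjusted p = 0.275). Ccn4 (0.30), Tfap2e (-0.33), Phlda2 (0.34) and Fn1 (0.29) did not pass either, nor did Adam28 (-0.20), Htra4 (-0.20), Cebpa (-0.16), Hmga2 (-0.19), Tgfb1 (-0.11), E2f3 (0.16) and Wt1 (0.09). With Hmgn5 siRNA at 24 h set against control siRNA at 4 h, where siRNA and time differ together, 9 of the 149 pathway genes were called. All were higher, and they made up 6.04% where 2.57% of all genes were called. At an unadjusted limma p under 0.05 the shares were 18.1% and 15.7%. Of the 19 protease genes 2 were called, Adam12 (0.60) and Ctsd (0.53), with limma adjusted p of 0.00744 and 0.0252. Calls were also made for 2 of 26 insulin receptor family, insulin and adaptor genes and 3 of 34 PI3K, Akt, mTOR and FoxO genes. The imprinted growth gene list and the IGFBP5 partner list held 1 each.

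**Figure D4:**
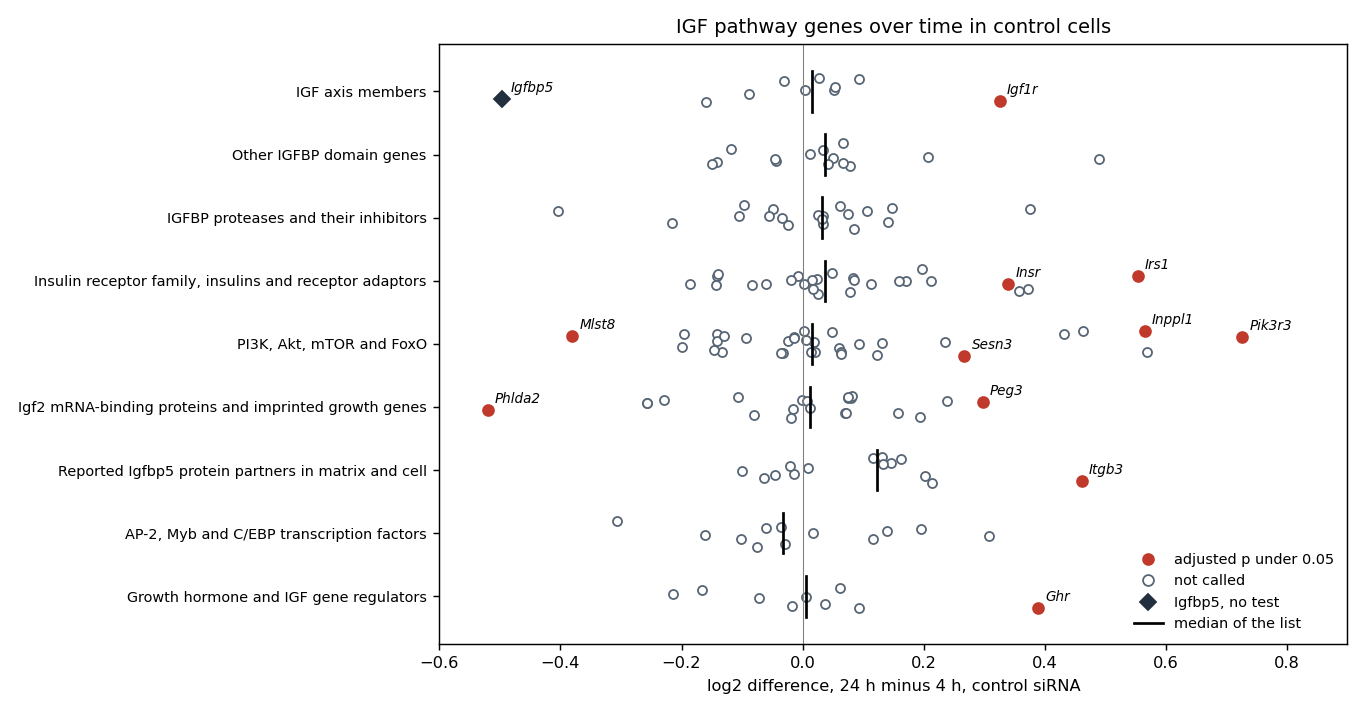
Each point is a gene's log2 difference of 24 h minus 4 h in control cells, by list, with the median of a list as a vertical bar. Filled red points are called by limma at the adjusted threshold and named, open points are not called, and Igfbp5 is a diamond because it was not tested. Calls lie on both sides of 0, from Phlda2 at -0.52 to Pik3r3 at 0.73, while all list medians lie between -0.03 and 0.12.

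The label of the cells was checked with markers. Of 15 measured sympathetic neuroblastoma markers 14 were above the 95th percentile of receptor genes, with Ddc below it, and their mean was 10.01 to 10.06 with Hmgn5 siRNA at 24 h, 9.98 to 10.02 with control siRNA at 24 h and 9.69 to 9.91 at 4 h. Of these, Dbh (0.80) and Th (0.53), enzymes of catecholamine synthesis, rose over time (limma adjusted p = 0.00534 and 0.0188), and the Th call was lost without each 24 h control array (up to 0.0774). Markers of other cell types lay partly above and partly below the 95th percentile of receptor genes, and their part in the results above was not tested. Fibroblast markers had a mean of 5.37 to 5.42 with Hmgn5 siRNA at 24 h, 5.38 to 5.43 with control siRNA at 24 h and 5.32 to 5.40 at 4 h, with 6 of 10 above that percentile and Dcn, Lum, Pdgfra and Postn below it. For endothelium 4 of 10, for glia 5 of 8 and for leukocytes 2 of 9 were above it. Glial markers averaged 5.31 to 5.32 with Hmgn5 siRNA and 5.28 to 5.34 with control siRNA at 24 h, against 5.11 to 5.21 at 4 h. None of the 4 lists of other cell types held a call at knockdown or over time. Over all genes 0.0135% and 4.34% were called, shares at which such short lists can easily hold none.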

How the data were processed

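Expression was measured in N1E-115 cells on 9 arrays, 3 in each of 3 groups taken from the sample titles. Per probe set the authors deposited log2 expression, made with oligo and RMA per the submitters' processing notes, with no version given in the sources used here. RMA includes a step that equalizes the arrays' distributions, which hides a shift common to most genes. The medians of the deposited values were still not all alike. Control 4 h replicate 2 had 5.30, where the other arrays had 5.16 to 5.21. The table held 41345 probe sets, of which 23521 had 1 gene symbol in the platform annotation, 1814 several and 16010 none. A gene was represented by its probe set with the highest mean, which gave 22180 genes.

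All genes were fitted at once with limma 3.58.1 in R 4.3.3 (group means, lmFit, eBayes, 6 residual and 3.55 prior degrees of freedom), and calls are genes with an adjusted p (Benjamini-Hochberg) under 0.05. Nothing in the labels ties the arrays to separate cultures, so the spread behind each p-value may be only technical, and the number of arrays limits precision. No 2 arrays held the same values.

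The members, the gene lists, the naming rule and the tests were chosen with earlier results of these data known. The text names all members, Hmgn5, the 6 nearest profiles, the 3 nearest measured genes on each side of Igfbp5, and of each pathway list up to 3 genes with the smallest p over time and 2 at knockdown. Replicate numbers were not used as pairs in the main fit. Deviations of same-numbered arrays correlated at 0.184, 0.0891 and 0.285 at knockdown and at 0.0382 to 0.0624 over time. Arrays with different numbers were not compared in this way, so these values do not decide whether the numbers mark pairs. Alternatives were a replicate block, a fit of the 2 groups compared, a trend with robust prior, array weights, removal of the dimmest 33% of genes, cyclic loess, median centring, probe set means, a fit with no empirical Bayes step and the omission of each array in turn.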

Additional observations from a re-analysis of the deposited data

How the results depend on the processing

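The Igfbp5 differences kept their sign in all 18 alternatives, with 1.00 to 1.20 at knockdown, -0.59 to -0.40 over time and 0.53 to 0.70 for Hmgn5 siRNA at 24 h against control at 4 h. Both ends of each range came from leaving out single arrays. None of the other 9 members was called at knockdown in any alternative. Over time the count of 1, which is Igf1r, was 0 with only the 2 groups compared (adjusted p = 0.0844) and with no empirical Bayes step (0.0518), and 0 to 1 when single arrays were left out. For Hmgn5 siRNA at 24 h against control at 4 h the count of 0 was 1 with array weights, again Igf1r (adjusted p = 0.0248), and 0 to 1 when single arrays were left out. The replicate block left the member counts at 0, 1 and 0, and with it 1 gene in all was called at knockdown in place of 3. Among the pathway genes and markers named as called over time, the block removed the calls of Inppl1, Sesn3, Peg3 and Ghr (adjusted p 0.0512 to 0.0626). With only the 2 groups compared those 4, Irs1 and Phlda2 were lost (0.078 to 0.134). With no empirical Bayes step Irs1, Inppl1, Phlda2, Ghr and Th were lost (0.0745 to 0.149), and with median centring Inppl1 and Sesn3 (0.0548 and 0.0644).

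Over all genes, the 3 calls at knockdown were 5 with a trend and robust prior, 7 with array weights, 0 with no empirical Bayes step and 0 to 2 without single arrays. The 963 calls over time were 280 with only the 2 groups compared, 1685 with array weights, 480 with no empirical Bayes step and 310 to 1238 without single arrays. The 569 calls for Hmgn5 siRNA at 24 h against control at 4 h were 113, 1226, 255 and 165 to 784 under the same settings. Median centring gave 477 rises and 309 falls over time in place of 481 and 482, and 375 and 148 in place of 338 and 231. The cause was not tested. Dim signal limits Igf1, Igf2, Igf2r, Igfbp2 and Igfbp3.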

Other observations

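Some deposited values repeat exactly between arrays. Igf2r had 1 value shared by 5 of its 9 arrays, and Igf1 and Igfbp7 each had 1 shared by 3. Outside the members, Igfbp1 had 1 value on 5 arrays and Pappa2, which encodes a protease of IGFBP3 and IGFBP5, had 1 on 7. In all, 6587 of 22180 genes (29.7%) had a value shared by at least 3 arrays, and their median level was 4.94 where that of the remaining genes was 6.49. The SD of Igf2r was 0.10 with control siRNA at 24 h and 0.00 at 4 h. The cause of the repeats was not tested.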
